A study of Homo sapiens with 3 samples.

Results

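The genes studied here are the solute carriers, the membrane proteins that move amino acids, sugars, nucleotides, metabolites, vitamins and ions across the plasma membrane and the membranes of organelles. They were taken as every protein-coding gene of the platform annotation whose RefSeq symbol starts with SLC and a digit. This gave 23 genes of the 11916 protein-coding genes with a named probe set. All 23 had 1 probe set each, and all lay above background, which was set at the median of all probe sets, 3.89 log2, on the highest of the 3 arrays. Of the 23 genes, 1 belonged to the amino acid carrier families (SLC1, SLC3, SLC6, SLC7, SLC36, SLC38 and SLC43), 2 to the mitochondrial SLC25 family and 20 to other families. The RefSeq gene table holds 386 protein-coding genes with such a symbol, and the other 363 were not analysed here, among them 60 of 61 genes of the amino acid families and 46 of 48 of SLC25. The well-known carriers of cancer cell metabolism, such as SLC7A11, SLC7A5, SLC3A2, SLC1A5, SLC2A1 and SLC16A3, were all among the genes not analysed, so the values below speak for the 23 genes alone.

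RNA came from MDA-MB-231, an established line of human triple-negative breast cancer with mesenchymal features. Cells were exposed for 72 h to 10 µM CFX, to 10 µM Mt-CFX or to 1% DMSO as the vehicle control, and each group was 1 array of 1 culture. The antibiotic in the series title is ciprofloxacin, of the fluoroquinolone class, and for Mt-CFX only the code name is given. No DMSO content is stated for the treated cultures. With 1 array a group there is no replicate error, no test and no p-value, and no difference below could be set against the spread between cultures. The mesenchymal markers named on the array (VIM, CD44, MSN, ANXA1 and AXL) were all above background, as were 6 of 7 named epithelial markers, EPCAM, KRT8, KRT18, KRT19, GATA3 and ESR1. The estrogen receptor gene ESR1 passed through the CFX array alone, at 3.92, and was at 3.81 on both others. The progesterone receptor gene PGR was below background, and of the leukocyte, endothelial and fibroblast markers named on it, only CD68 was above background.

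Solute carriers fall into families by sequence, and members of a family often share a substrate class. The amino acid families supply cells with building blocks for protein, glutathione and nucleotide synthesis, and several of their genes are textbook targets of the stress transcription factor ATF4. The SLC25 carriers span the inner mitochondrial membrane and link the matrix to the cytosol. Most of the genes measured here come from recently numbered families, many of them MFSD, PQ-loop or TMEM proteins under their older names, whose substrates are known for only a part.

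None of the 23 genes differed between any pair of arrays by as much as 1.5-fold. The widest difference of a member was that of SLC2A4RG, 1.18-fold higher with Mt-CFX than in the control. At 13 genes the 3 arrays had exactly the same value, and the 10 others differed by 0.24 log2 or less. Among all 8868 protein-coding genes above background, a difference of at least 2-fold in either direction was seen for 0.0226% with CFX over control, 0.564% with Mt-CFX over control and 0.383% with Mt-CFX over CFX, against 0 members in each. At 1.5-fold the shares of all genes were 0.147%, 2.71% and 2.15%, again against 0 members. With 23 genes, shares of this size correspond to fewer than 1 gene, so a count of 0 is close to the background. In bulk RNA, fewer cells of a type and less RNA per cell cannot be told apart, and differences in total RNA are not visible after this normalization.

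**Figure D1:**
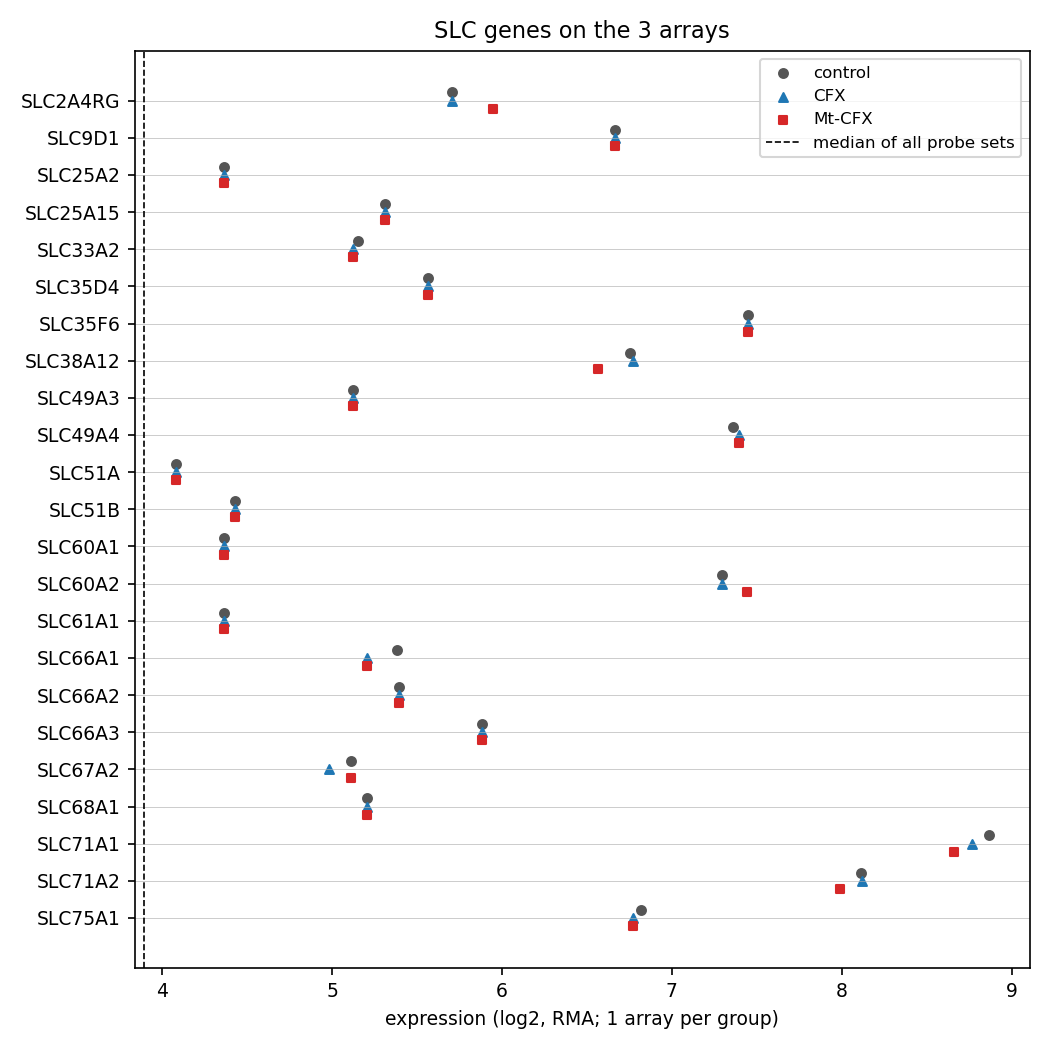
Expression of the 23 SLC genes on the 3 arrays (x axis, log2 values, 1 array per group), with genes in order of family number on the y axis and the median of all probe sets as a dashed line. All values lie to the right of that line, and for 13 genes the 3 symbols have the same x value.

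The first members by role are those named for amino acids. SLC38A12, known earlier as TMEM104, is placed by sequence in the family of sodium-coupled neutral amino acid carriers. Its values were 6.76 in the control, 6.77 with CFX and 6.56 with Mt-CFX. The Mt-CFX array was the low one, and the other arrays lay close together. Its log2 difference was 0.015 for CFX over control, −0.19 for Mt-CFX over control and −0.21 for Mt-CFX over CFX. In size, the difference between Mt-CFX and control was exceeded by 17.2% of all genes. SLC38A12 was the only amino acid family member measured, so nothing can be said about that class as a whole.

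SLC66A1, or PQLC2, exports cationic amino acids from the lysosome, although its family is counted among the others. It stood at 5.38 in the control and at 5.20 on each of the treated arrays. The control was thus the high array, and the log2 difference from it was −0.18 for CFX and for Mt-CFX alike. For CFX this was the widest difference of any member, and 7.12% of all genes differed more. Both of these differences use the same control array. Its relatives SLC66A2 and SLC66A3, PQ-loop proteins of less certain substrate, had equal values on the 3 arrays, 5.39 and 5.88.

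Both SLC25 genes measured here carry ornithine and related basic amino acids across the inner mitochondrial membrane. SLC25A15, or ORC1, is the main ornithine-citrulline carrier of the urea cycle, and its loss causes the HHH syndrome. Its value was 5.31 on each array. SLC25A2, or ORC2, a close relative, was at 4.36 on each array. No difference was seen for either gene, and the ADP/ATP, phosphate, citrate and aspartate-glutamate carriers of this family were not analysed here.

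Both SLC71 genes had unequal values. SLC71A1 and SLC71A2, earlier MFSD14A and MFSD14B, encode closely related transporter-like proteins of the major facilitator superfamily. SLC71A1 stood at 8.87 in the control, 8.77 with CFX and 8.66 with Mt-CFX. SLC71A2 stood at 8.11, 8.12 and 7.99 in the same order. On both probe sets the Mt-CFX array was the lowest, while the CFX array was below the control for SLC71A1 and level with it for SLC71A2. The log2 difference of Mt-CFX from control was −0.21 for SLC71A1 and −0.13 for SLC71A2, sizes exceeded by 15.6% and 23.9% of all genes. Against CFX, the difference with Mt-CFX was −0.11 for SLC71A1 and −0.13 for SLC71A2. How far probes for these related genes read the same transcripts was not tested.

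Of the SLC60 genes, SLC60A2 differed between arrays. SLC60A2, also called NaGLT1 or MFSD4B, has been described as a sodium-dependent glucose carrier of the kidney. It was at 7.29 in the control and with CFX, and at 7.44 with Mt-CFX. The Mt-CFX array alone was high, by 0.15 log2 over each of the others, and 21.9% of all genes differed more from the control in size. SLC60A1 was at 4.36 on the 3 arrays.

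SLC2A4RG carries an SLC symbol but is not a carrier. It encodes a zinc finger protein that binds the promoter of the glucose carrier gene SLC2A4. Its values were 5.71 in the control, 5.71 with CFX and 5.95 with Mt-CFX. The Mt-CFX array alone was high, by 0.24 log2 over each of the others, and 12.9% of all genes differed more from the control in size. Leaving this gene aside, the widest difference of a carrier from the control was the one of SLC71A1 with Mt-CFX, where the control was 1.15-fold higher.

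The other genes with unequal values differed by smaller amounts or on the CFX array. SLC67A2, or MFSD9, a protein with no settled substrate, was at 5.11 in the control and with Mt-CFX and at 4.98 with CFX. It was the only member for which the CFX array stood apart from equal values on the other arrays, by −0.13 log2. SLC75A1, or MFSD10, was at 6.82 in the control and 6.77 on both treated arrays, a difference of −0.046. SLC33A2, or MFSD3, a relative of the acetyl-CoA carrier of the endoplasmic reticulum, was at 5.15 in the control and 5.13 on both treated arrays, a difference of −0.030. SLC49A4, a lysosomal membrane protein also called DIRC2, was at 7.36 in the control and 7.40 on both treated arrays, a difference of 0.034. For these last 3 genes, as for SLC66A1, the control stood apart from equal values of the compounds.

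**Figure D2:**
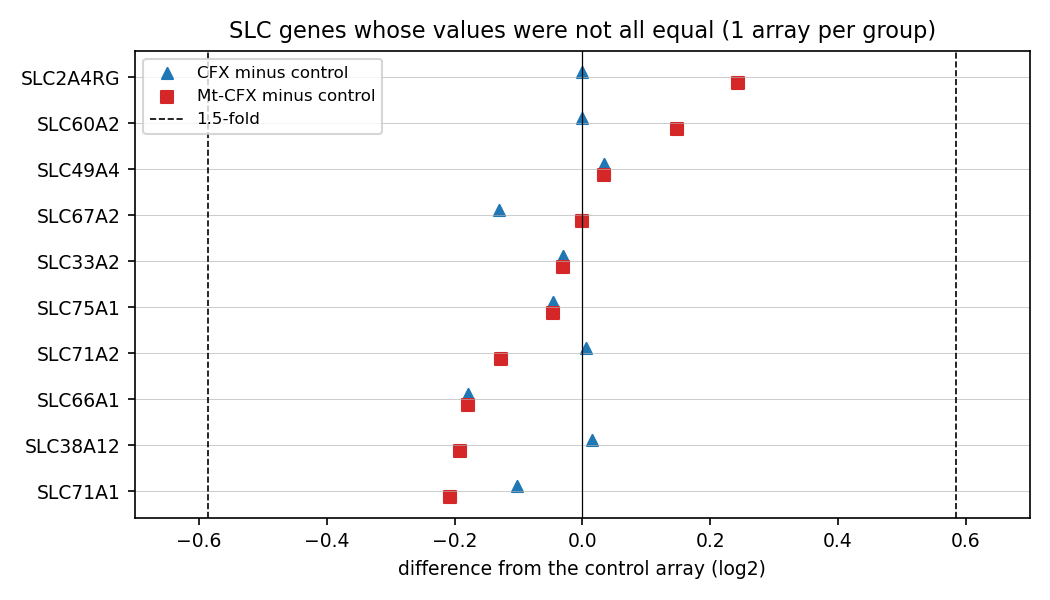
Log2 difference from the control array (x axis) for the 10 SLC genes with unequal values (y axis), with CFX as triangles, Mt-CFX as squares and 1.5-fold as dashed lines. The points lie between −0.21 and 0.24, well inside the dashed lines.

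The remaining members had equal values on the 3 arrays. SLC51A and SLC51B, which encode the subunits of a basolateral exporter of bile acids and steroids, were at 4.08 and 4.43. SLC61A1, or MFSD5, which takes up molybdate, was at 4.36, SLC49A3 at 5.13 and SLC68A1 at 5.21. Of the SLC35 family, most of whose studied members carry nucleotide sugars into the Golgi and endoplasmic reticulum, SLC35D4 was at 5.56 and SLC35F6 at 7.45. SLC9D1, or TMCO3, which resembles sodium-proton exchangers, was at 6.67. These are values of different probe sets and say nothing about which of the genes is more abundant.

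Counting any inequality between arrays, 8 of 23 members differed between CFX and control, 3 higher and 5 lower, against 40.8% of all genes. Between Mt-CFX and control 9 members differed, 3 higher and 6 lower, against 47.1% of all genes. Between Mt-CFX and CFX 6 members differed, 3 each way, against 45.3% of all genes. In percent of the members these counts were 34.8%, 39.1% and 26.1%, below the share of all genes in each comparison. With 23 genes these gaps amount to a few genes, and they were not tested. The comparisons share arrays and are not independent of each other. The median difference of the members was 0.00 in each comparison, as was that of all genes. For the 20 members of the other families alone the median was also 0.00, with means of −0.022 for CFX over control, −0.0082 for Mt-CFX over control and 0.014 for Mt-CFX over CFX.

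**Figure D3:**
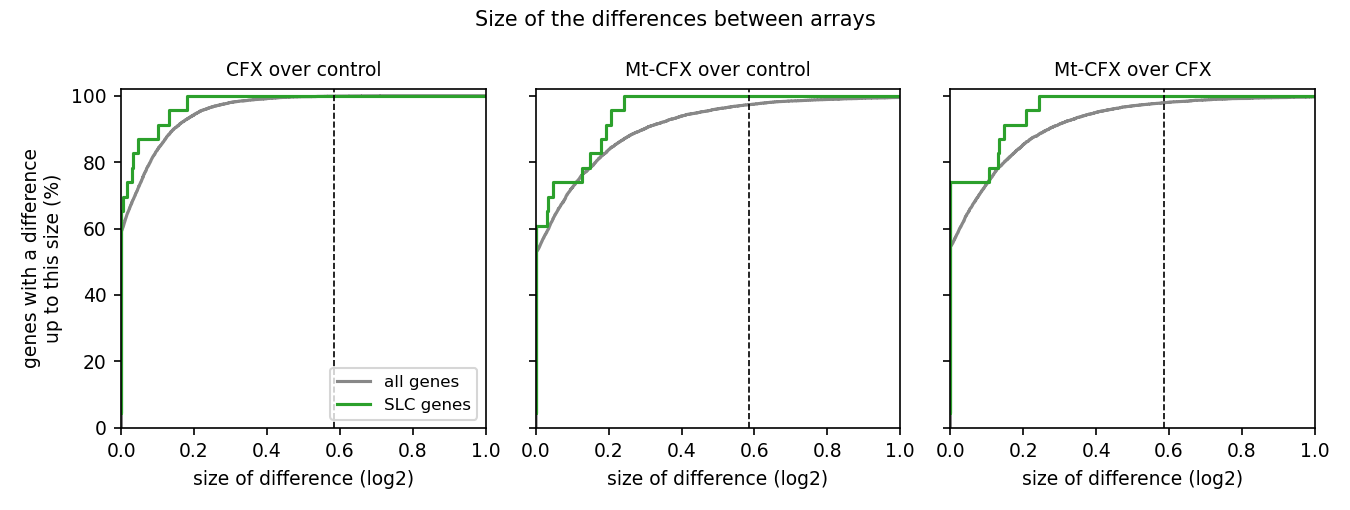
Percent of genes (y axis) whose difference between arrays was no larger than the size on the x axis (log2), for the 23 SLC genes and all 8868 genes, in the 3 comparisons, with 1.5-fold dashed. The SLC curves start at the share of equal values and reach 100% by 0.24 log2, while the curves of all genes go on beyond 1.5-fold.

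How often values were equal moved with the level of the probe set. Among all genes, 62% of those with a mean under 5 log2 had equal values on the 3 arrays, against 51.6% from 5 to 6, 39.8% from 6 to 7, 28.1% from 7 to 8 and 17.2% from 8 upward. Of the members, 5 of 5 under 5 were equal, 6 of 10 from 5 to 6, 1 of 3 from 6 to 7, 1 of 3 from 7 to 8 and 0 of 2 from 8 upward. Most members lay in the range where equal values are common, with 15 of 23 under 6. So did most of all 8868 genes, with 2522 under 5 and 2277 from 5 to 6. The part of the level in the number of differing members was not tested.

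**Figure D4:**
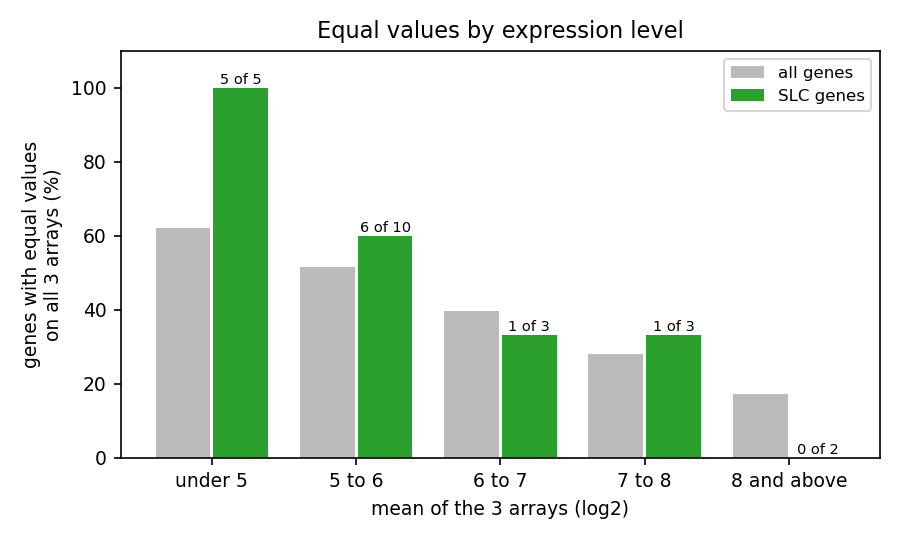
Percent of genes with exactly equal values on the 3 arrays (y axis, from 0) by mean log2 level (x axis), for all genes above background (grey) and for the SLC genes (green, with counts). The share falls from 62% to 17.2% over all genes, and the SLC bars rest on 2 to 10 genes each.

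Members also shared values with other probe sets. SLC25A2, SLC60A1 and SLC61A1 had the same value to every deposited digit on all arrays, and 213 probe sets in all had that same set of 3 values. The 3 values of SLC51A were those of 308 probe sets, and the 3 values of SLC68A1 those of 101. Of the 69 member values, 45 were also found at another probe set of the same array, 65.2% against 55.5% for all genes. SLC38A12, SLC71A1 and SLC71A2 each had 3 values found at no other probe set of the same array, while the control value of SLC2A4RG was that of 68 probe sets. A level that so many probe sets share cannot be read as a precise measurement of the gene, and an equal value on 3 arrays does not show that the transcript was the same in the 3 cultures.

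Promoter sequences are shown for the 5 carriers that differed from the control by at least 0.1 log2 with Mt-CFX, which were chosen after their values were seen. With SLC2A4RG, 6 of the 23 members differed by that much, as did 27.7% of all genes, so their number is close to the background. RefSeq promoter windows (GRCh38.p14) were matched for 18 of the 23 genes, and the 250 bases before the annotated start were searched on both strands for TGATGNAA, the core of the ATF4-C/EBP element, TGACNNNGC, the antioxidant element of NRF2, CACGTG, an E-box, and TCACNCCA, a sterol element. Matches are in capitals, and the lines read 5′ to 3′. All 5 lie on the plus strand, SLC38A12 at chr17:74776249-74776498, SLC71A1 at chr1:100037845-100038094, SLC71A2 at chr9:94374319-94374568, SLC60A2 at chr6:111259089-111259338 and SLC66A1 at chr1:19312076-19312325.
SLC38A12: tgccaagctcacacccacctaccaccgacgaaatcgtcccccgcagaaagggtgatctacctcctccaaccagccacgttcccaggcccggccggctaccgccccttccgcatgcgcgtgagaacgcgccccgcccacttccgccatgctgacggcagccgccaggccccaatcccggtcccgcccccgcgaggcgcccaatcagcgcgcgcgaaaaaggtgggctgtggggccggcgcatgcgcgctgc
SLC71A1: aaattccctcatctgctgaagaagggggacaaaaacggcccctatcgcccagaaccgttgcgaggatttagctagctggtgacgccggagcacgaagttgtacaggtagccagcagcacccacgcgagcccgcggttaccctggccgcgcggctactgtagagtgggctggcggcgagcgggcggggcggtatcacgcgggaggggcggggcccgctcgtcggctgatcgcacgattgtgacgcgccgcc
SLC71A2: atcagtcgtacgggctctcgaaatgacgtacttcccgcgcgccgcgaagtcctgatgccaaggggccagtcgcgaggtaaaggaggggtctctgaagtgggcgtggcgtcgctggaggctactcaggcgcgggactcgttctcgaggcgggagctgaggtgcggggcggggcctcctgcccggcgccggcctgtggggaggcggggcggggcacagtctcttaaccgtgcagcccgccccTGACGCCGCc
SLC60A2: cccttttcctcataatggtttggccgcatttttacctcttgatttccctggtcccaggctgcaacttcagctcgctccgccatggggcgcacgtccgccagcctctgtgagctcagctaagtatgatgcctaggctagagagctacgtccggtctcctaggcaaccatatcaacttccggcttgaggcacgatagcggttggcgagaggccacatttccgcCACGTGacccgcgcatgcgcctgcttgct
SLC66A1: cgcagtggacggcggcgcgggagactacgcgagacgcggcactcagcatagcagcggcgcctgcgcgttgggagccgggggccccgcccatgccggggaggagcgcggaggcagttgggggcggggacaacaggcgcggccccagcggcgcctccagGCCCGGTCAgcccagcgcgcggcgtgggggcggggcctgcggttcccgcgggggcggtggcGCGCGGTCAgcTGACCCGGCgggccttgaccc

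None of the 4 motifs was found in the windows of SLC38A12 and SLC71A1. The window of SLC71A2 held 1 match to the antioxidant element and that of SLC66A1 held 3, while that of SLC60A2 held 1 E-box. No matches overlapped in these windows. Over the 18 genes, 3 had the antioxidant element, which 10.9% of all promoter windows in the table hold, and 1 had the E-box, which 6.34% hold. The ATF4 core and the sterol element were each found at 1 gene, SLC51B, whose values were equal on the 3 arrays, and are held by 3.14% and 3.20% of all windows. Such matches are descriptions of letters and not evidence of binding.

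Genes around the solute carriers were taken from lists drawn up with earlier results of these data known. Of 35 symbols listed for carriers of the same type, such as the mitochondrial pyruvate carrier genes MPC1 and MPC2, 20 had a named probe set. The list also held MFSD10 and PQLC1, older names of the members SLC75A1 and SLC66A2, which were not matched under those names. Of the 20 genes, 15 were above background and 0 were 1.5-fold apart in any comparison. Over all genes that share was 0.147% with CFX over control, 2.71% with Mt-CFX over control and 2.15% with Mt-CFX over CFX. A count of 0 is thus close to the background. With Mt-CFX over control 4 were higher, 4 lower and 7 equal, where 47.1% of all genes were unequal. MPC1, SPNS2 and SPNS3 are given because they differed most between Mt-CFX and control, by −0.24, −0.29 and 0.29 log2. Over all genes the 90th percentile of the size of this difference was 0.298. MPC1 was at 6.30 in the control, 6.24 with CFX and 6.06 with Mt-CFX. SPNS2, the exporter of sphingosine-1-phosphate, was at 4.97, 4.69 and 4.68, and SPNS3 at 4.85, 4.85 and 5.14. Of 14 aquaporin genes 12 had a named probe set and 9 were above background, with 0 at 1.5-fold. Of 39 P-type ATPase genes only 5 had a named probe set and 3 were above background, also with 0. No ABC or SLCO transporter was analysed here.

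The list of partners and regulators of carriers includes ATF4, MYC and NFE2L2, whose differences were already known, so its counts support nothing further. Of 27 genes, 22 had a named probe set and 18 were above background. Among these 18, 4 were at least 1.5-fold higher and 1 lower with Mt-CFX than in the control, where 2.71% of all genes were that far apart. With CFX over control 0 were, and with Mt-CFX over CFX 2 were higher and 1 lower, beside 2.15% of all genes. One gene counted as higher in both, WNK4, was above background on the Mt-CFX array alone. The regulators ATF4, MYC and NFE2L2, which drive several carrier genes, were higher with Mt-CFX than in the control by 0.83, 0.88 and 0.63 log2. With CFX they were higher than in the control by 0.24, 0.32 and 0.25 log2. WNK4, a kinase that controls cation-chloride carriers, went from 3.53 in the control and 3.43 with CFX to 4.36 with Mt-CFX, and since the first 2 values lie below background its size is uncertain. EMB, the embigin gene, whose product escorts monocarboxylate carriers to the cell surface, was at 5.65 in the control, 5.73 with CFX and 5.04 with Mt-CFX, a log2 difference of −0.61 from the control. BSG, which encodes basigin, the partner of other monocarboxylate carriers, was at 10.6, 10.6 and 10.5. Since the monocarboxylate carriers themselves were not analysed, these values cannot be set beside theirs.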

How the data were processed

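Total RNA was measured on whole-transcript expression arrays, 1 for each of 3 groups, so the number of arrays limits the precision. The deposited table holds 1 log2 value for each probe set and array. Per the submitters' processing notes, the authors used RMA and Affymetrix Expression Console; versions and genome build were not given in the sources used here. RMA equalises the distribution of probe intensities over arrays; the medians of the probe-set values were 3.91 (control), 3.90 (CFX) and 3.88 (Mt-CFX). Of the 53617 probe sets, 16098 had a gene symbol in the platform annotation. Each gene kept its probe set with the highest mean, and genes were kept where the highest array reached 3.89 log2. Differences of log2 values were counted at 2-fold and 1.5-fold. The naming rule took every member at 1.5-fold, the 4 highest and 4 lowest of each class, and 32 preset genes, none of which had a named probe set. Members and lists were chosen with earlier results of these data known. Alternatives were other floors, the mean of probe sets, lowess re-centring (span 0.3), 1.2-fold, and means. The counting code was tested on simulated data with large planted differences and no equal or shared values. That test says nothing about how well differences can be counted in these data. Python 3.11.15, pandas 2.3.3 and statsmodels 0.14.6 were used.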

Additional observations from a re-analysis of the deposited data

Results flagged for a closer look

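For SLC38A12 and SLC71A2 the differences from the control had opposite signs with the compounds, although the CFX array was almost level with the control. SLC38A12 differed from the control by 0.015 log2 with CFX and by −0.19 with Mt-CFX, and SLC71A2 by 0.0059 with CFX and by −0.13 with Mt-CFX. The CFX values are close to 0, each group was 1 array, and the difference between the compounds was not tested.

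Probe sets of 14 genes with an SLC symbol that do not encode a protein were outside the comparisons, 13 of them long non-coding RNAs. Of these, 4 were above background, and 2 of those 4 were above the control on a treated array. Among protein-coding genes above background, 25.8% were above the control with CFX and 23.9% with Mt-CFX. With only 4 genes, the count of 2 shows no excess over such shares. SLC25A21-AS1 was at 4.85 in the control, 5.03 with CFX and 5.42 with Mt-CFX. It was 1.48-fold higher with Mt-CFX than in the control, which is wider than any difference among the 23 protein-coding members. Its control value was, to every deposited digit, also that of SLC25A25-AS1 and SPNS3 on the same array, so this fold is not precise. How many non-coding genes differed as much was not counted. SLC9A3-OT1 was at 5.07 in the control, 5.13 with CFX and 5.07 with Mt-CFX. SLC7A11-AS1 had equal values on the 3 arrays, 4.08. The sense gene of SLC25A21-AS1 was not analysed here.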

How the results depend on the processing

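The counts of members at 2-fold and at 1.5-fold were 0 in the 3 comparisons with no floor, with a floor on the mean, with a floor at the 75th percentile (which left 11 of 23 members), with probe sets averaged per gene and with lowess re-centring. For most of these settings that 0 was fixed in advance. All 23 members lay above background with 1 probe set each. Lifting the floor or averaging probe sets thus left their values as they were. The stricter floors could only drop members. Only lowess re-centring could have changed a count. Among all genes, the share at 1.5-fold for Mt-CFX over control did move. It was 2.71% in the main setting, 2.22% without a floor and 3.71% at the 75th percentile. At 1.2-fold the count of members was also 0. The exact share of all genes at that size was not counted, but their 90th percentile of difference gives a bound. It was 0.145 log2 for CFX over control, 0.298 for Mt-CFX over control and 0.271 for Mt-CFX over CFX. Both Mt-CFX values lie beyond 1.2-fold, so the 0 is below the share of all genes there. That gap was not tested. Lowess re-centring moved members by at most 0.0102 log2, and SLC71A1 in Mt-CFX over CFX went from −0.11 to −0.095. Taken as a mean in place of the median of 0.00, the difference of the other SLC families was −0.022 for CFX over control and 0.014 for Mt-CFX over CFX, and no other class summary moved by 0.01 log2 or more in any of these settings. The SLC25 genes lay below the floor at the 75th percentile and had no value there. No paired analysis was possible because each group was 1 array and the result comes from no test. Equal and shared values limit what small differences can show, and 363 solute carrier genes were not analysed.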

Other observations

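The deposited values repeat. Of 160851 values on the 3 arrays, 53.5% took one of 298 numbers that each occur more than 50 times, and the control array held 19569 distinct values over 53617 probe sets. Of all probe sets, 49.5% had the same value on every array. A reader who compares genes of low level in this series, solute carriers included, would want to look at probe-level data, which were not used here.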
